A study of Homo sapiens with 4 samples.

Results

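The ATP-binding cassette (ABC) transporters were described in CD133+ and CD133- cells of Huh7, an established human hepatocellular carcinoma line. The members are the genes whose platform symbol reads ABC, a subfamily letter from A to G and a number, taken from probe sets annotated with a single symbol. They were 42 of the 19775 named genes, measured by 96 probe sets. Both populations came from the same line by flow cytometry for CD133, the membrane protein encoded by PROM1, and the labels name no treatment. Each was taken to be hybridised to 1 array as biotin-labelled RNA, so no difference has a replicate check and no test between the populations was possible. The labels do not say whether the sort was repeated, and 1 line limits what the values say of liver cancer cells in general. RNA of a whole population was measured, so more cells with a transcript and more transcript per cell cannot be told apart.

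ABC transporters bind and hydrolyse ATP in paired nucleotide-binding domains and use that energy to move substrates across membranes. In liver they export bile salts, phospholipid, cholesterol and conjugated drugs into bile at the canalicular membrane, and return conjugates to blood at the basolateral one. Others act in mitochondria, peroxisomes and lysosomes, and the E and F subfamilies have no membrane domain and work on ribosomes. Several exporters are known as multidrug resistance proteins, and ABCG2 is known for the dye efflux by which side population cells are sorted.

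Unless MAS5 is named, values are on the RMA log2 scale. Both were taken as summaries of the same arrays, because the labels differ in the algorithm alone, and they were not used as replicates. Differences are CD133+ minus CD133- on the log2 scale. Each gene stands for its brightest probe set by mean RMA, and it was called detected when its brighter array exceeded a floor of 4.86, the median brighter value on these arrays. The spread of 1 probe set's difference about others of the same gene was 0.17 (SD over 16955 pairs above the floor), and 0.16 over the 28 such pairs of ABC genes. It leaves out variation between sorts, cultures and hybridisations. PROM1 itself was at 10.49 in CD133+ cells and 5.33 in CD133- cells. All 5 hepatocyte products of a marker list were above the floor, from -0.16 for TF to 0.55 for TTR, with ALB at -0.05. Other probe sets of TF, SERPINA1 and ALB above the floor went as low as -0.75, -0.44 and -0.42. Of markers of other cells, 3 of 4 blood genes and 2 of 7 endothelial and stromal genes lay above the floor. Their differences ran from -0.25 for CD14 to 0.23 for PECAM1. Among them CD3E and VWF had MAS5 signals below a MAS5 floor of 91.8, set in the same way, on both arrays. PTPRC and the other 5 endothelial and stromal genes lay below the RMA floor on both arrays.

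Of the 42 ABC genes 28 were detected, beside 12899 of all 19775 named genes, a similar share. Most of the 28 differed little between the populations. ABCG2 was the only member at least 2-fold higher in CD133+ cells by RMA, and no member was 2-fold lower. Among all 12899 detected genes 1.65% were at least 2-fold higher and 0.116% at least 2-fold lower, and with 28 genes a single call cannot be read as a share that stands apart. At 1.5-fold, ABCG2 and ABCB1 were higher and none was lower, against 3.67% and 1.01% of all detected genes. The difference was smaller than the probe set spread of 0.17 for 17 of the 28 members, or 60.7%, against 62.1% of all detected genes. The median was -0.07 for the members and -0.01 for all detected genes. By RMA 8 members were above 0 and 20 below it, whereas by MAS5 the same 28 genes gave 15 above and 13 below. Of all detected genes 45.6% were above 0 by RMA and 50.3% by MAS5.

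**Figure D1:**
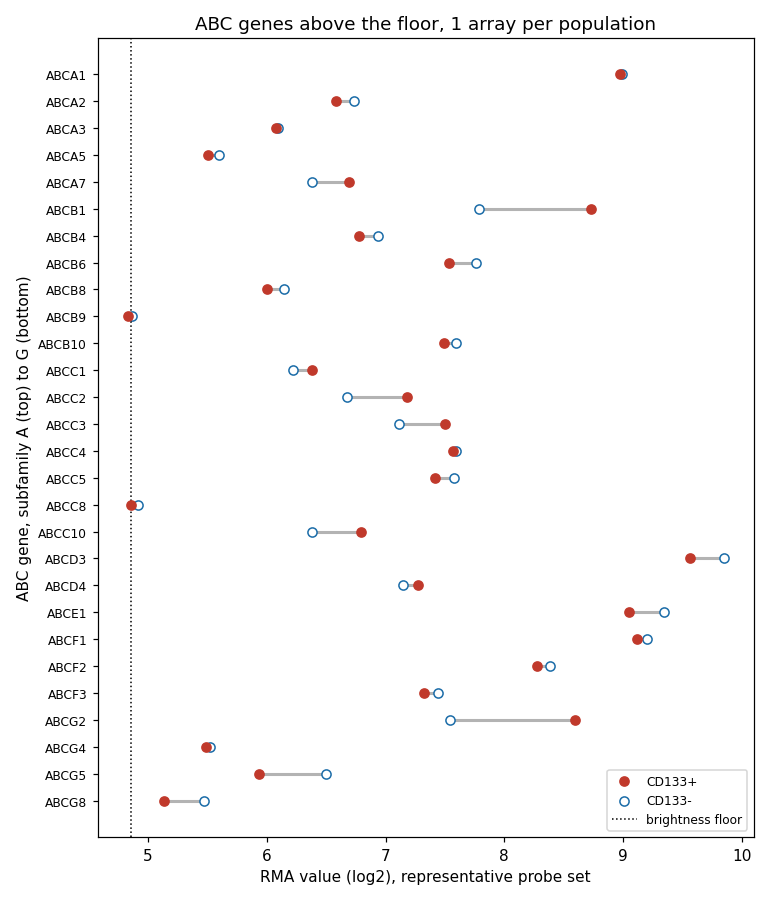
RMA values (log2, horizontal axis) of the 28 ABC genes above the brightness floor, with CD133+ as filled and CD133- as open circles and 1 array each; each row is 1 gene, subfamily A at the top and G at the bottom. The widest gaps are those of ABCG2 and ABCB1, with CD133+ on the right, and ABCG5 has the widest gap with CD133+ on the left; positions of different genes along the axis cannot be compared, since each has its own probes.

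ABCG2 and ABCB1, the exporters best known from multidrug resistance, had the largest RMA differences of the 42 members. ABCG2, the breast cancer resistance protein, which exports urate, porphyrins and many drugs, was at 8.60 in CD133+ cells and 7.55 in CD133- cells by RMA. That is a 2.08-fold difference, rank 199 from the top among 12899 detected genes. Its MAS5 signals were 1964 in CD133+ cells and 856 in CD133- cells, 2.29-fold. ABCG2 was read by a single probe set, so no other probe set checks it.

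ABCB1, the P-glycoprotein that exports hydrophobic drugs, was at 8.73 in CD133+ cells and 7.78 in CD133- cells. The difference of 0.95 was 1.93-fold, just short of the 2-fold limit, and by MAS5 it was 2.15-fold, with signals of 2676 in CD133+ cells and 1246 in CD133- cells. The second ABCB1 probe set had 6.36 in CD133+ cells and 5.51 in CD133- cells, a difference of 0.85. A further probe set annotated to both ABCB1 and ABCB4 was outside the member rule and differed by 0.64. Every ABCB1 probe set was therefore brighter on the CD133+ array. ABCB4, the phosphatidylcholine floppase of the canalicular membrane, is the RefSeq neighbour of ABCB1 on chromosome 7. It had 6.77 in CD133+ cells and 6.94 in CD133- cells. Its difference was -0.17 by RMA but 0.25 by MAS5, and its second probe set was lower by at least 1.41-fold against the floor, so the neighbours did not share a direction by RMA.

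The bases before the start sites of ABCG2 and ABCB1 are shown because these genes differed most. They come from RefSeq on GRCh38.p14, where 33 of the 42 members had a promoter entry, with 49 start sites among them. Capitals mark matches on either strand to GCGTG, the core bound by the aryl hydrocarbon receptor, to the GC box GGGCGG, to the CCAAT box, to the TATA box TATAAA or to the GATA box GATAAG, and no matches overlap. The motifs, and which start of each gene is shown, were chosen after the differences and the matches were known.
ABCG2, chr4:88158910-88159159, minus strand: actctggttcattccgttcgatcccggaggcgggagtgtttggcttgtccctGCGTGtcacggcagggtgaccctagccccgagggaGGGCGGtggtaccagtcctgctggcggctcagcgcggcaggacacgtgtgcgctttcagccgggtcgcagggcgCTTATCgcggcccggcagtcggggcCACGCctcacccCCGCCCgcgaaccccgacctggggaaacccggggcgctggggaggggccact
ABCB1, chr7:87600885-87601134, minus strand: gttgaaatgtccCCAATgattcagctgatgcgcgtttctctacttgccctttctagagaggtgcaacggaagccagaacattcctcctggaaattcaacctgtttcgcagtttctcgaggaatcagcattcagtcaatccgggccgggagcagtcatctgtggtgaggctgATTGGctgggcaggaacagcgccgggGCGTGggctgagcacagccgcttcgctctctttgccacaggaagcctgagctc
The ABCG2 window holds the receptor core at 2 places, the GC box at 2 and the GATA box at 1, and is 71.2% G and C. RefSeq lists 5 starts for ABCG2, and 3 of the windows hold the receptor core. The ABCB1 window, before the downstream of its 2 starts, holds the CCAAT box at 2 places and the receptor core at 1, with 55.6% G and C. The window before its other start has 39.2% G and C and holds a GATA box at 1 place and 0 matches to the receptor core or the CCAAT box. Such matches are common: among 35116 windows of 250 bases, 32.2% hold the receptor core, 42.6% the GC box, 32.0% the CCAAT box, 10.7% the TATA box and 5.65% the GATA box. Among the 49 ABC windows the shares were 42.9%, 51.0%, 20.4%, 10.2% and 14.3% in the same order. Windows of nearby starts overlap, so these shares can count the same site more than once. That holds for the GATA box, receptor cores and GC boxes of 2 ABCG2 windows. It also holds for the GATA box between ABCG5 and ABCG8, which lies in the windows of both genes. A match is not a measured binding site.

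ABCG5 and ABCG8, whose products pair into the sterolin transporter that moves cholesterol and plant sterols into bile and gut lumen, were lower in CD133+ cells by RMA. ABCG5 had 5.93 in CD133+ cells and 6.50 in CD133- cells. Its difference of -0.57, 1.48-fold, was just short of 1.5-fold and lay at rank 136 from the bottom among detected genes. MAS5 signals of ABCG5 were 286 in CD133+ cells and 442 in CD133- cells, 1.55-fold lower. ABCG8 had 5.13 in CD133+ cells and 5.47 in CD133- cells, a difference of -0.34. By MAS5 the ABCG8 signals of 88.0 in CD133+ cells and 76.7 in CD133- cells lay below the MAS5 floor of 91.8 and ran the other way, so the lower value of ABCG8 rests on RMA. Each gene had 1 probe set.

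The genes lie back to back on chromosome 2, ABCG5 on the minus and ABCG8 on the plus strand, and the 131 bases between their RefSeq starts are shown because the pair leaned the same way by RMA.
ABCG5 to ABCG8, chr2:43838840-43838970, plus strand: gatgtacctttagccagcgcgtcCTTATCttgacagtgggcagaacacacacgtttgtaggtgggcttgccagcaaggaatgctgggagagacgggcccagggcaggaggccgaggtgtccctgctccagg
The capitals mark a GATA box on the minus strand, the only match there to the motifs named above.

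**Figure D2:**
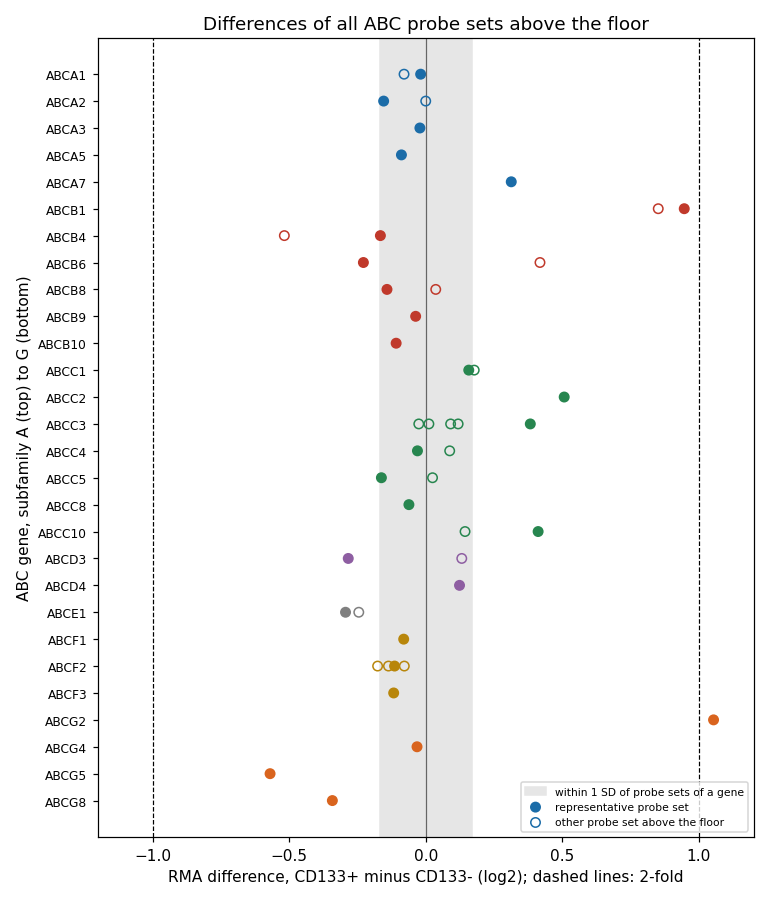
RMA difference CD133+ minus CD133- (log2, horizontal axis) of every probe set above the floor, by gene from subfamily A at the top to G at the bottom. Filled points are the representative probe sets and open points the others, the grey band spans 0.17 to each side of 0, and dashed lines mark 2-fold; the ABCB1 points lie at 0.95 and 0.85, while the points of ABCB6 and ABCD3 lie on both sides of 0. Differences are as measured, also where the dimmer value lies below the floor.

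The canalicular exporters as a list went both ways. Of 7 listed genes 6 were detected, 3 of them above 0 and 3 below by RMA, with a median of 0.17. ABCC2, the conjugate exporter MRP2 that carries bilirubin glucuronides into bile, was at 7.18 in CD133+ cells and 6.67 in CD133- cells. Its difference was 0.51 by RMA, 1.42-fold, and 0.92 by MAS5, with signals of 736 in CD133+ cells and 389 in CD133- cells. ABCB11, the bile salt export pump, was below the floor on both arrays and its level was not resolved. By MAS5, 5 of the 6 differences were above 0, that of ABCG8 from signals below the floor.

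The basolateral exporters of the C subfamily went both ways by RMA, with 3 of 5 detected genes above 0, against 45.6% of all detected genes, and 3 of 5 within the probe set spread. ABCC3, the MRP3 exporter of glucuronides to blood, was at 7.50 in CD133+ cells and 7.12 in CD133- cells, a difference of 0.38, while its other 4 probe sets above the floor differed by -0.03 to 0.12. By MAS5 its representative probe set differed by 0.61, and the others above the MAS5 floor by -0.24 to 0.90. ABCC10 had 6.79 in CD133+ cells and 6.38 in CD133- cells. Its difference was 0.41, and its second probe set differed by 0.14. ABCC1, the glutathione conjugate exporter MRP1, differed by 0.16 and 0.18 on its probe sets by RMA, about the size of the probe set spread. By MAS5 the same probe sets differed by 0.54 and 0.40. ABCC4, which exports cyclic nucleotides and bile salts, had 7.56 in CD133+ cells and 7.59 in CD133- cells, but MAS5 signals of 988 in CD133+ cells and 750 in CD133- cells. ABCC5, another cyclic nucleotide exporter, was the member of this list with the lowest difference, -0.16 by RMA and -0.35 by MAS5.

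Over all 7 detected members of the C subfamily the median was 0.16 by RMA and 0.54 by MAS5, with 4 above 0 by RMA and 6 by MAS5. One of those 6, the sulfonylurea receptor gene ABCC8, had RMA values of 4.85 in CD133+ cells and 4.92 in CD133- cells, at the floor, and MAS5 signals below the floor.

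The lipid transporters of the A subfamily differed little. ABCA1, which loads cholesterol and phospholipid onto apolipoprotein A-I, was at 8.97 in CD133+ cells and 8.99 in CD133- cells, with MAS5 signals of 2242 in CD133+ cells and 2494 in CD133- cells. ABCA7, a relative of ABCA1, was the only detected A member above 0, at 6.69 in CD133+ cells and 6.38 in CD133- cells. ABCA2 and ABCA5 differed by -0.15 and -0.09. ABCA3, the phospholipid transporter of lamellar bodies in lung, depended on the summary: it was at 6.07 in CD133+ cells and 6.09 in CD133- cells by RMA, whereas its MAS5 signals were 62.1 in CD133+ cells and 129 in CD133- cells, lower in CD133+ cells. The CD133+ signal lay below the MAS5 floor, so the difference is at least 1.40-fold. Among members whose brighter signal exceeded the MAS5 floor, ABCA3 was as measured the only one past 2-fold lower by MAS5. Of all 12251 genes above that floor 1.71% were. With signals below the floor raised to it, no member was 2-fold lower. ABCB1 and ABCG2 were 2-fold higher by MAS5 with every signal above the floor, against 4.47% of those genes. ABCG4, a sterol transporter known from brain, differed by -0.03.

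**Figure D3:**
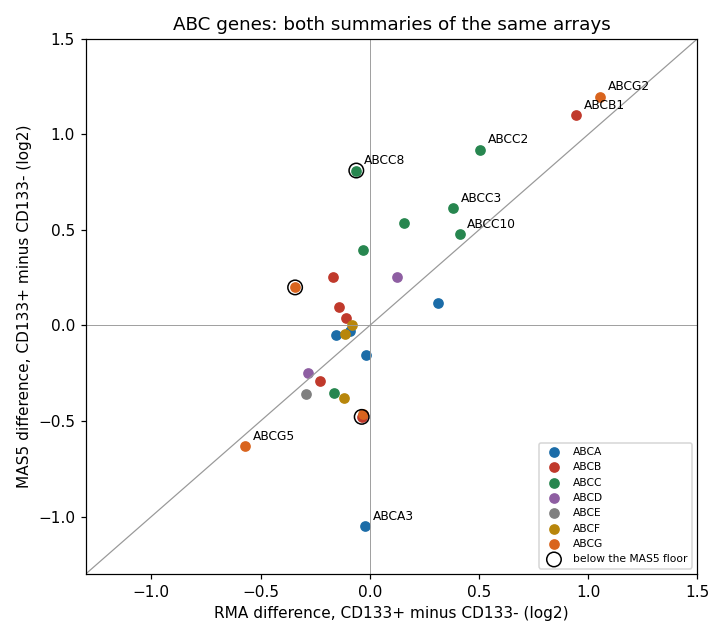
Difference CD133+ minus CD133- (log2) by RMA on the horizontal and by MAS5 on the vertical axis for the 28 detected ABC genes, coloured by subfamily; the diagonal marks equal differences and rings mark genes with both signals below the MAS5 floor of 91.8. ABCG2 and ABCB1 lie at the upper right, ABCG5 at the lower left, and ABCA3 far below the diagonal with -0.02 by RMA and -1.05 by MAS5, its MAS5 value resting on a CD133+ signal below the MAS5 floor.

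The ribosome-associated members were below 0 by RMA, ABCE1 by more than the probe set spread and the others within it, and the organelle transporters went both ways. ABCE1, the ribosome recycling factor, had 9.05 in CD133+ cells and 9.35 in CD133- cells, and its second probe set differed by -0.25. MAS5 signals of ABCE1 were 3142 in CD133+ cells and 4031 in CD133- cells. The translation genes ABCF1, ABCF2 and ABCF3 differed by -0.08, -0.11 and -0.12, inside the probe set spread. Together the E and F genes had 8 probe sets above the floor, of which all 8 were below 0 by RMA and 6 of 8 by MAS5. Of these 8 probe sets, 4 read ABCF2 and 2 ABCE1, and among all 23130 named probe sets above the floor 51.8% were below 0 by RMA. ABCF1 had MAS5 signals of 2220 in CD133+ cells and 2214 in CD133- cells, a difference of 0.00.

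The mitochondrial members ABCB6, ABCB8 and ABCB10 differed by -0.23, -0.14 and -0.11 by RMA, but ABCB8 and ABCB10 were above 0 by MAS5. ABCB6, known for porphyrin transport, had a difference of -0.23, and its second probe set ran the other way by at least 0.27 against the floor, below which its CD133- value lay. ABCD3, which imports branched-chain fatty acids and bile acid precursors into peroxisomes, was at 9.56 in CD133+ cells and 9.85 in CD133- cells, and its second probe set differed by 0.13. ABCD4, which acts in lysosomal cobalamin release, differed by 0.12, and the lysosomal peptide transporter ABCB9 lay at the floor with a difference of -0.04. For 14 members several probe sets exceeded the floor, and in 7 of these members all signs matched.

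The other 14 members were below the floor on both arrays: ABCA4, ABCA6, ABCA8, ABCA9, ABCA12, ABCA13, ABCB5, ABCB11, ABCC9, ABCC11, ABCC12, ABCC13, ABCD2 and ABCG1. Their 37 probe sets had RMA values from 1.57 to 4.67 and MAS5 signals of at most 88.2. Differences of their representative probe sets ran from -0.21 to 0.46, and no direction is read from them. ABCB5 is known as a marker of melanoma-initiating and limbal stem cells, and it gave no signal above the floor in either Huh7 population.

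Superfamily members with other symbols and genes that work with ABC transporters were measured alongside. CFTR, the chloride channel of the C subfamily, had 5.24 in CD133+ cells and 4.07 in CD133- cells. The CD133- value lay below the floor, against which CFTR was at least 1.31-fold higher. Its MAS5 signals were 184 in CD133+ cells and 28.5, below the MAS5 floor of 91.8, in CD133- cells. TAP1 and TAP2, the B subfamily pair that loads peptides for MHC class I, differed by 0.34 and 0.24 by RMA, and each by 0.67 by MAS5. TAPBP, the tapasin that bridges them to class I molecules, differed by 0.25.

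Among all 46 listed partners, regulators and related carriers 40 had a probe set of their own and 35 were detected. In the values as measured, CFTR was at least 2-fold and 4 genes were at least 1.5-fold higher, against 1.65% and 3.67% of all detected genes. None was 1.5-fold lower on its representative probe set, against 1.01% of all detected genes. The carrier SLCO4C1 differed by -0.26 on that probe set and by -0.66, past 1.5-fold, on another above the floor. With the CD133- value of CFTR set to the RMA floor, 0 were 2-fold and 3 were 1.5-fold higher by RMA. The median of the 35 was 0.03. AHR, the ligand-activated aryl hydrocarbon receptor whose known targets include ABCG2, was at 8.54 in CD133+ cells and 7.78 in CD133- cells, 1.69-fold higher. Its MAS5 signals were 1590 in CD133+ cells and 1003 in CD133- cells. AHR was the exception in its list, since the other detected receptors and regulators ran from -0.19 for SREBF2, the sterol-sensing factor, to 0.12 for HIF1A. The liver X receptor NR1H3, which activates ABCA1, ABCG5 and ABCG8, differed by -0.03, and the oxidative stress factor NFE2L2 by -0.11.

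PDZK1, a scaffold that anchors apical transporters such as ABCC2, was at 7.87 in CD133+ cells and 7.20 in CD133- cells, 1.60-fold higher. RDX, the radixin that links ABCC2 to actin, differed by 0.31, with 0.34 and 0.40 on its other probe sets above the floor. SLC51A and SLC51B, the subunits of the basolateral organic solute transporter, were both above 0: SLC51A had 8.09 in CD133+ cells and 7.49 in CD133- cells, and SLC51B had 10.02 in CD133+ cells and 9.64 in CD133- cells. The uptake carrier SLCO1B3 differed by -0.48 and SLCO2B1 by 0.36. LCAT, which esterifies the cholesterol that ABCA1 exports, differed by -0.47. By MAS5, SLCO1B3 and LCAT were each 2.06-fold lower in CD133+ cells. The bile salt uptake carrier SLC10A1 was below the floor on both arrays.

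**Figure D4:**
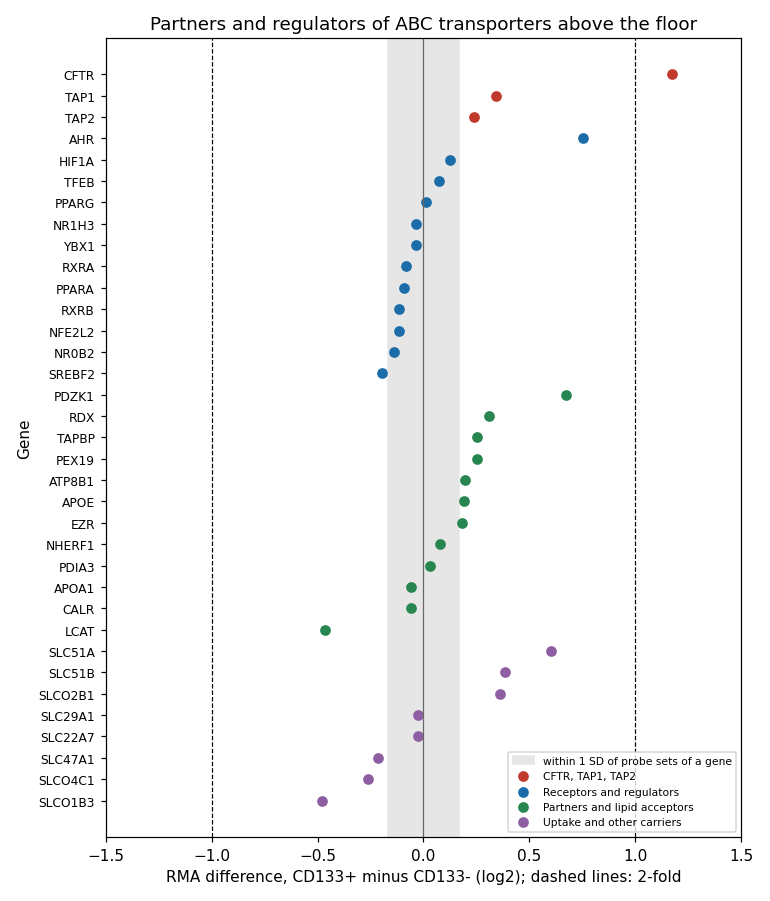
RMA difference CD133+ minus CD133- (log2, horizontal axis) of the 35 detected partners, regulators and related carriers, coloured by list and sorted within it, with 1 point a gene; the grey band spans 0.17 to each side of 0 and dashed lines mark 2-fold. CFTR is drawn at 1.17 as measured, although its CD133- value lies below the floor, against which the RMA difference is at least 1.31-fold. AHR, PDZK1 and SLC51A are the highest points with both values above the floor, and SLCO1B3 and LCAT the lowest.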

How the data were processed

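RNA of 2 populations was taken to be measured on 1 array each, which the deposited table gives by 2 algorithms. The MAS5 columns hold linear signal intensity by MAS5, as the authors deposited it; the software named, per the submitters' processing notes, is MAS5 with GCOS. Both deposited arrays share a 2% trimmed mean of 500.1, a global scaling. The RMA columns hold the authors' log2 values, per the labels, normalized so that a global shift cannot be seen; the software is not given in the sources used here. Probe sets with exactly 1 platform symbol named genes (41097 of 54675), updated through Entrez numbers to GRCh38.p14. MAS5 signals under 1 were set to 1 before log2.

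Differences were computed with Python 3.11.15 and pandas 2.3.3. The call rule was tested on simulated data with planted differences well past the 2-fold limit. Its behaviour near that limit, and under variation between real arrays, was not tested. With 1 array per population no p-value is given, and the number of arrays limits the precision. Calls are at least 2-fold among detected genes. Values are printed for members 1.5-fold apart by RMA or 2-fold by MAS5, for the brightest member of each subfamily, and for others by their role, chosen with their values seen. Members and lists were chosen with earlier results of these data known. The alternatives were MAS5, both algorithms together, probe set rules, floors and a fold of 1.5. Protein sequences were not used here.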

Additional observations from a re-analysis of the deposited data

How the results depend on the processing

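The count of ABC genes at least 2-fold higher in CD133+ cells was 1 (ABCG2) and became 2, ABCG2 and ABCB1, with MAS5 and with a fold of 1.5. The count at least 2-fold lower was 0 and became 1, ABCA3, with MAS5, where its CD133+ signal lay below the MAS5 floor. With values below the floor raised to it, an alternative chosen after seeing the data, the higher count was 1 by RMA and 2 by MAS5 and the lower count 0 by both. Both counts were the same with both algorithms together, the mean over probe sets, no floor and a stricter floor of 6.79. They were also the same without probe sets whose names end in _s_at, _x_at or _a_at, where 20 members were detected. The median of the detected members moved between -0.09 and 0.00 over these settings, less than the probe set spread. Of 8 named members, ABCA3 (-1.05) and ABCC4 (0.40) moved by more than that spread with MAS5, and ABCD3 (-0.08) with the mean over probe sets; the causes were not tested. No paired analysis was possible because each population has 1 array.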
